A study of Mus musculus with 6 samples.

Results

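The regions described here are peaks of methylated DNA that stood in only 1 of 4 deposited peak lists and lay at an end of a protein-coding gene. They were chosen by merging the 4 lists wherever peaks overlapped by at least 1 bp, keeping the regions that only 1 list held, and of these keeping those with the centre no more than 1 kb from an end of any protein-coding gene body. Of 10085 merged regions, 7989 were held by 1 list, and 818 of these lay at a gene end. They touched 801 of 21887 protein-coding genes.

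The study asked how DNA methylation changes when I/11 cells, a mouse erythroblast line from p53-deficient fetal liver (E12.5), are made to differentiate with erythropoietin (Epo) after knockdown of Plcg1, the gene of phospholipase C gamma 1. Cells carried lentiviral short hairpin RNA 133 or 14 against Plcg1 and were selected with puromycin at 1 ug/ml for 48 h. The 4 groups used here were hairpin 133 after 24 h in differentiation medium with 10 U/ml Epo, hairpin 14 after 24 h in the same medium, hairpin 133 at 0 h and hairpin 14 at 0 h, which is 96 h after infection for the 24 h groups and 72 h for the 0 h groups. Until differentiation the cells grew with 1 U/ml Epo, 100 ng/ml stem cell factor and 1 uM dexamethasone. All groups come from 1 p53-deficient line, and each group is 1 library, so no difference between lists has a replicate check. The scrambled hairpin libraries were not analysed here. A listed region carries no score and no direction relative to the control hairpin, and a methylation list measures neither Plcg1 transcript nor cell type. Plcg1 itself (mm10 chr2:160731310-160775760) had 0 regions at its ends, and the nearest one-list gene-end region lay 2663 kb away.

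In mammalian DNA, methyl groups sit mostly on cytosines that precede guanines, the CpG dinucleotides. Most of the genome is poor in CpG, but the starts of many genes, above all housekeeping and developmental genes, lie in CpG-rich stretches called CpG islands, which are usually unmethylated in normal cells. Methylation of an island at a gene start is known to go with a silent gene, whereas methylation inside gene bodies and at their 3′ ends is common in active genes too. The assay bound sonicated DNA to MBD2-Fc, a methyl-CpG binding domain fused to an antibody tail, and sequenced the fraction released at 1 M NaCl, which holds DNA dense in methylated CpG.

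The sequences below show some one-list peaks at annotated start sites, chosen by a window and not as typical of one-list regions at gene starts. They are the promoters, among genes named by the rule given under the processing, in which a peak lay wholly inside the window from 250 bases before to 50 bases after an annotated start site. Of 818 regions, 43 lay wholly inside such a window. Among the named genes 9 qualified, and the first 8 in the order of the rule are given. Each run is 5′ to 3′ on the gene's strand, from RefSeq on GRCm38.p6 (the coordinates of mm10), and ends 30 bases after the start site. Capitals mark the peak, of which the Zfp300 run holds 149 of 151 bases.
Pcdh18 (protocadherin 18, cell adhesion), chr3:49757287-49757566, minus strand, peak of hairpin 133 at 24 h: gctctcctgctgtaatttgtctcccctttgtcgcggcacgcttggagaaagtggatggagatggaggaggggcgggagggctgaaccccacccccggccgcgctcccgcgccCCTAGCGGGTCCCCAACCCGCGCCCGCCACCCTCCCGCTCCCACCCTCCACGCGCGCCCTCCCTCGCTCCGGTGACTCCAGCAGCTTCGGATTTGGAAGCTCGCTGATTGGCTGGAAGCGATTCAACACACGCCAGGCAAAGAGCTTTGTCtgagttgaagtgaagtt
Fgf2 (basic fibroblast growth factor), chr3:37348403-37348682, plus strand, peak of hairpin 133 at 24 h: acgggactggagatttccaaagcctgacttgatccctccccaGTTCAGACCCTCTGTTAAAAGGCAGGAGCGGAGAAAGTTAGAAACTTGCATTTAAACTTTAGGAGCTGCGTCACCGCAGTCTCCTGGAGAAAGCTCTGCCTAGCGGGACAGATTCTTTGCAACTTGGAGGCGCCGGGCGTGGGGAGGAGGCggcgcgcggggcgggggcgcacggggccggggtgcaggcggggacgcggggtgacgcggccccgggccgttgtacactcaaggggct
Ascl2 (a basic helix-loop-helix factor and imprinted gene), chr7:142969235-142969514, minus strand, peak of hairpin 133 at 24 h: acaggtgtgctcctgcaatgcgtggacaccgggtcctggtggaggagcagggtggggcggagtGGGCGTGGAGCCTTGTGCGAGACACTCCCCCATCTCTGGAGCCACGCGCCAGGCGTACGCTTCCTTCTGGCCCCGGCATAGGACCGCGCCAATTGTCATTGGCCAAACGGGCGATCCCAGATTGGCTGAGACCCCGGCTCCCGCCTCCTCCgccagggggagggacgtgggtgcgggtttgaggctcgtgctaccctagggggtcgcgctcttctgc
Cacnb4 (a beta subunit of voltage-gated calcium channels), chr2:52676114-52676393, minus strand, peak of hairpin 14 at 24 h: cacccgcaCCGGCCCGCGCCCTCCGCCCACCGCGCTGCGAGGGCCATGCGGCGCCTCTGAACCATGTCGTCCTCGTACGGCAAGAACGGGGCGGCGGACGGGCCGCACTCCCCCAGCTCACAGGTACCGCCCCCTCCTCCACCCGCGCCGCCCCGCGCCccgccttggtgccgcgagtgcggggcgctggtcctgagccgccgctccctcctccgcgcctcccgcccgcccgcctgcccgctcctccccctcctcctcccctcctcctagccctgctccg
Syk (a tyrosine kinase of blood cells), chr13:52583187-52583466, plus strand, peak of hairpin 14 at 24 h: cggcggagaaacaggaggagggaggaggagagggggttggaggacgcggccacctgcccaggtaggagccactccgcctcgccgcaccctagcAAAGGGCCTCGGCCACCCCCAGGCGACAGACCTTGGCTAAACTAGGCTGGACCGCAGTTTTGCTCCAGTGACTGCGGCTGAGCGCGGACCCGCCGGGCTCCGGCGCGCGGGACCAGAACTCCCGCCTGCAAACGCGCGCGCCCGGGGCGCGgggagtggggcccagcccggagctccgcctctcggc
B4galt4 (a galactosyltransferase), chr16:38742009-38742288, plus strand, peak of hairpin 14 at 0 h: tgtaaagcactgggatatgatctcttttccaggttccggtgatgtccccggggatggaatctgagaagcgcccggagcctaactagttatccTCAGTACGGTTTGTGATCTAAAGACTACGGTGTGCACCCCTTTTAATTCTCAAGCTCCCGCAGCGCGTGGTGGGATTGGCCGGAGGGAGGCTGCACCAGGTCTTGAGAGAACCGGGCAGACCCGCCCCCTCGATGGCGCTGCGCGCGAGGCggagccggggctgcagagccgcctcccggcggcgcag
Zfp300 (a zinc finger gene), chrX:21089200-21089479, minus strand, peak of hairpin 14 at 0 h: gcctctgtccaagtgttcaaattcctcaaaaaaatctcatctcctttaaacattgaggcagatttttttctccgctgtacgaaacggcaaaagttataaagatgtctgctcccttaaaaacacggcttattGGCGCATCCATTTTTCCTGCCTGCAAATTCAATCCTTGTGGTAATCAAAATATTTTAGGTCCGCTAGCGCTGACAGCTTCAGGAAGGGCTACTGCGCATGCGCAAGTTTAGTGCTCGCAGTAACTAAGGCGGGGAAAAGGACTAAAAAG
Cntnap5b (a contactin-associated protein gene), chr1:99772151-99772430, plus strand, peak of hairpin 14 at 0 h: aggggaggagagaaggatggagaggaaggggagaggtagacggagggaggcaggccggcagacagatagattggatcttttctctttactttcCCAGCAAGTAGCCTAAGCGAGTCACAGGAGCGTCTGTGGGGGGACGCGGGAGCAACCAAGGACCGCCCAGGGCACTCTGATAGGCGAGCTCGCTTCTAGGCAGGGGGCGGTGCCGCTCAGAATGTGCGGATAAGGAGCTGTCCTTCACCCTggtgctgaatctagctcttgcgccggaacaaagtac

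These peaks ranged widely in CpG. The Cacnb4 peak held 23 CpG in 151 bases at 78.1% G and C, and the Syk peak 20 CpG at 72.2%. The Pcdh18 peak held 14 CpG, and the Ascl2 and B4galt4 peaks 13 each. Cntnap5b had 10 CpG in its peak, while Fgf2 and Zfp300 had 7 each, Zfp300 at only 47.7% G and C. Only the Ascl2 window belongs to the outermost annotated start of its gene, and the other 7 belong to start sites inside the gene body. Measured from the outermost start, the peak centres of Cacnb4, Zfp300 and Syk lay 299, 425 and 745 bp downstream. The nearest peak of another list was 61 bp away for Fgf2, 75 bp for Syk, 290 bp for B4galt4, 446 bp for Cacnb4 and 955 bp for Pcdh18. It was 137804 bp away for Ascl2, 1007594 bp for Cntnap5b and 1851705 bp for Zfp300. Syk and Cacnb4 also had 1 gene-end region each that 2 or more lists held.

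Gene ends took a larger share of one-list regions at 24 h than at 0 h. At 24 h there were 244 such regions with hairpin 133 and 230 with hairpin 14, against 189 with hairpin 133 and 155 with hairpin 14 at 0 h. The lists themselves held 2960 and 2666 peaks at 24 h, and 3900 and 3437 at 0 h (hairpin 133, then 14). As a share of one-list regions, gene ends took 12.6% with hairpin 133 at 24 h (95% interval 11.2 to 14.2%, 244 of 1937) and 13.9% with hairpin 14 at 24 h (12.3 to 15.6%, 230 of 1656). At 0 h the shares were 7.86% with hairpin 133 (6.81 to 9.01%, 189 of 2405) and 7.79% with hairpin 14 (6.65 to 9.05%, 155 of 1991). The intervals are exact binomial ones and cover counting error only. The intervals of the 24 h lists do not overlap those of the 0 h lists, while those of the 2 hairpins overlap at each time. With 1 library per list, this overlap says nothing of times or hairpins as conditions. Since distance to a gene end and presence in 1 list chose the regions, these shares are a description and were not tested.

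What counts as held by 1 list depends on the other lists. With the list of hairpin 133 at 0 h left out, one-list gene-end regions numbered 273 (hairpin 133) and 252 (hairpin 14) at 24 h, against 273 with hairpin 14 at 0 h. With hairpin 14 at 0 h left out, they numbered 261 (hairpin 133) and 254 (hairpin 14) at 24 h, against 307 with hairpin 133 at 0 h. The order of the counts therefore depends on which lists are merged. The order of the shares did not change in these settings: 13.3% and 14.3% at 24 h against 9.75% at 0 h in the first, and 12.99% and 14.6% at 24 h against 9.55% at 0 h in the second. Regions of 2 or more lists lay at gene ends more often than one-list regions in every list, in 32.3% and 32.5% of cases at 24 h and in 23.2% and 23.7% at 0 h (hairpin 133, then 14). Over all lists the shares were 10.2% of one-list regions (9.58 to 10.9%) and 24.5% of regions of 2 or more lists (22.7 to 26.4%). A region counted when the centre of any of its peaks lay within 1 kb of a gene end. Regions of 2 or more lists hold several peaks and so had more chances to count, and the part of this in the difference was not tested.

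**Figure D1:**
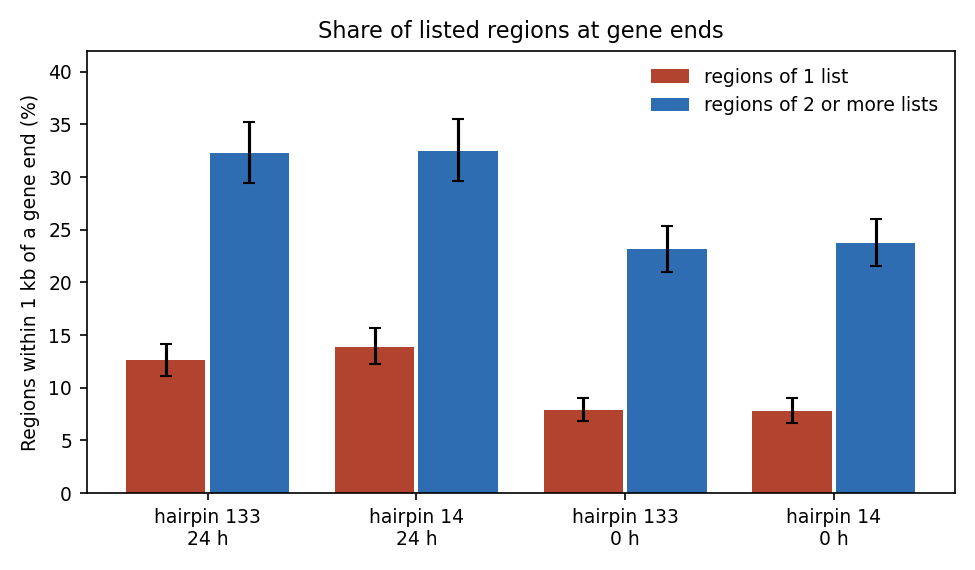
Percent of listed regions that lie at gene ends (centre of any of their peaks at most 1 kb away), for regions held by 1 list and for regions held by 2 or more lists, in each of the 4 lists. Bars are shares with exact binomial 95% intervals; one-list shares are 12.6% and 13.9% at 24 h and 7.86% and 7.79% at 0 h.

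The 1 kb limit of the choice does not mark a gap in the data. The outermost member lay 999 bp from its gene end and the nearest region left out lay 1003 bp away, with 50 members between 900 and 1000 bp and 55 one-list regions between 1000 and 1100 bp. Around the overlap limit of 1 bp the measured regions left an empty stretch. The member nearest to a peak of another list was separated from it by 32 bp. Among gene-end regions of 2 lists with 1 peak each, the smallest overlap was 27 bp, and 3 of 303 overlapped by up to 50 bp.

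One-list regions lay at 3′ ends of genes more often than shared regions did. Where the promoter table gave the gene's strand, the nearest end was the gene start for 468 of 635 one-list regions (73.7%, 95% interval 70.1 to 77.1%) and the 3′ end for the other 167. Among gene-end regions of 2 or more lists it was the start for 338 of 385 (87.8%, 84.1 to 90.9%). The difference was -14.1 percentage points (odds ratio 0.390, adjusted p = 1.35e-06 in a two-sided Fisher's exact test, with Benjamini-Hochberg adjustment over all 25 position tests). It was the only one of the 25 tests that passed 0.05. Regions are the units of these tests, so they compare lists of regions and not conditions. For 183 one-list regions and 129 shared ones the table gave no strand.

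Within single lists, a comparison chosen after seeing the data, the start was nearest for 72.4% of one-list regions with hairpin 133 at 24 h, 80.1% with hairpin 14 at 24 h, 69.4% with hairpin 133 at 0 h and 71.2% with hairpin 14 at 0 h. Shared regions of the same lists had 89.7%, 88.3%, 87.7% and 87.7%. The difference passed the test in 3 lists (Fisher's exact test, adjusted p = 2.13e-05 with hairpin 133 at 24 h, 5.09e-05 with hairpin 133 at 0 h and 0.000686 with hairpin 14 at 0 h). With hairpin 14 at 24 h it was -8.22 points and did not pass (Fisher's exact test, adjusted p = 0.138). Within a list, p was adjusted over the position measures of that list alone and not over the 25 tests. The lists held 330, 328, 346 and 343 shared gene-end regions, drawn from the same 514. Each shared region entered the test of every list that held it, so these tests are not independent of each other. Between the one-list regions of single lists the start share did not differ past the threshold (Fisher's exact tests over regions, adjusted p = 0.617 to 0.948 for 4 pairs of lists, from the 25 tests). With 1 library per list, these values say nothing of the times or the hairpins.

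Genes with a one-list region at the 3′ end included Snrpd3, a core protein of the spliceosome, Mdm2, the ubiquitin ligase that holds p53 in check, and Ebf1, a B-cell factor. In Mdm2 the region lay at chr10:117689441-117689591, 641 bp inside the 3′ end, in the list of hairpin 14 at 0 h. In Ebf1 it lay at chr11:45007378-45007528, 643 bp inside the 3′ end, in the list of hairpin 14 at 24 h. Grb2, the adaptor that links receptors to Ras, had its region 580 bp beyond the 3′ end with hairpin 14 at 0 h, and Pik3ca, a catalytic subunit of phosphoinositide 3-kinase, 136 bp beyond it with hairpin 133 at 0 h.

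**Figure D2:**
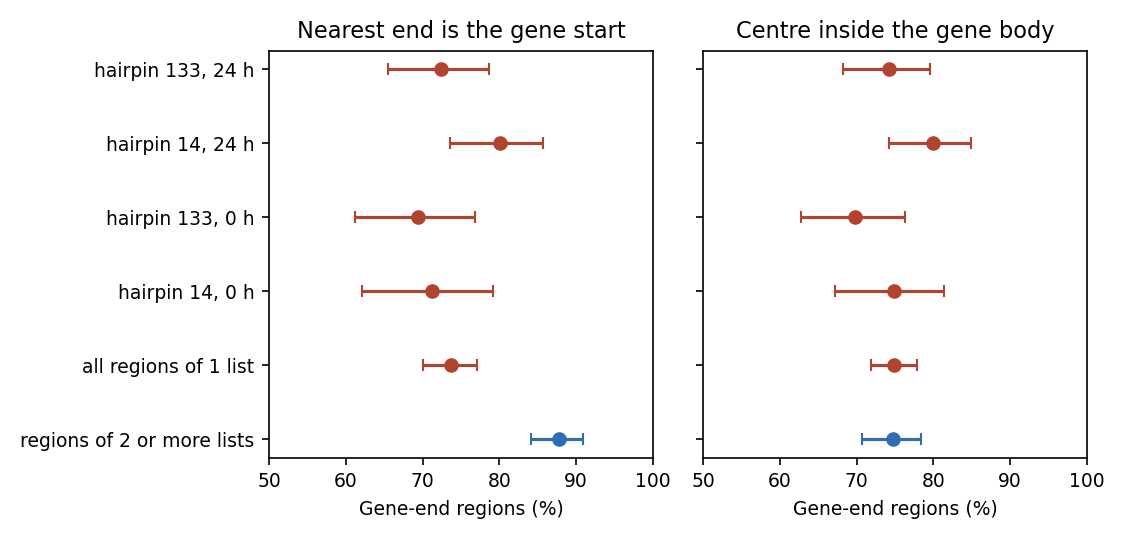
Left, percent of gene-end regions whose nearest end is the gene start; right, percent whose centre lies inside the gene body, for one-list regions of each list, all one-list regions and regions of 2 or more lists, with exact binomial 95% intervals. The start share of one-list regions (73.7%) is below that of shared regions (87.8%), and the inside share is 74.9% against 74.7%; the axis begins at 50%.

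Most regions lay inside the gene body rather than beyond its end. The centre was inside for 613 of 818 one-list regions (74.9%, 71.8 to 77.9%) and for 384 of 514 shared ones (74.7%, 70.7 to 78.4%; Fisher's exact test, adjusted p = 0.948), a difference of 0.231 percentage points. At gene starts the median one-list region sat 207 bp downstream of the start, with quartiles of -1 and 518 bp, against 260 bp for shared regions, with quartiles of 4 and 566 bp. The single 100-bp bin with the most one-list regions was the first one downstream of the start, with 62 of 468 (13.2%), against 36 of 338 shared regions (10.7%) in that bin. At 3′ ends the median one-list region sat 374 bp upstream of the end, inside the gene. A region lay near ends of several genes in 42 of 818 cases (5.13%), against 34 of 514 shared ones (6.61%; Fisher's exact test, adjusted p = 0.644).

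**Figure D3:**
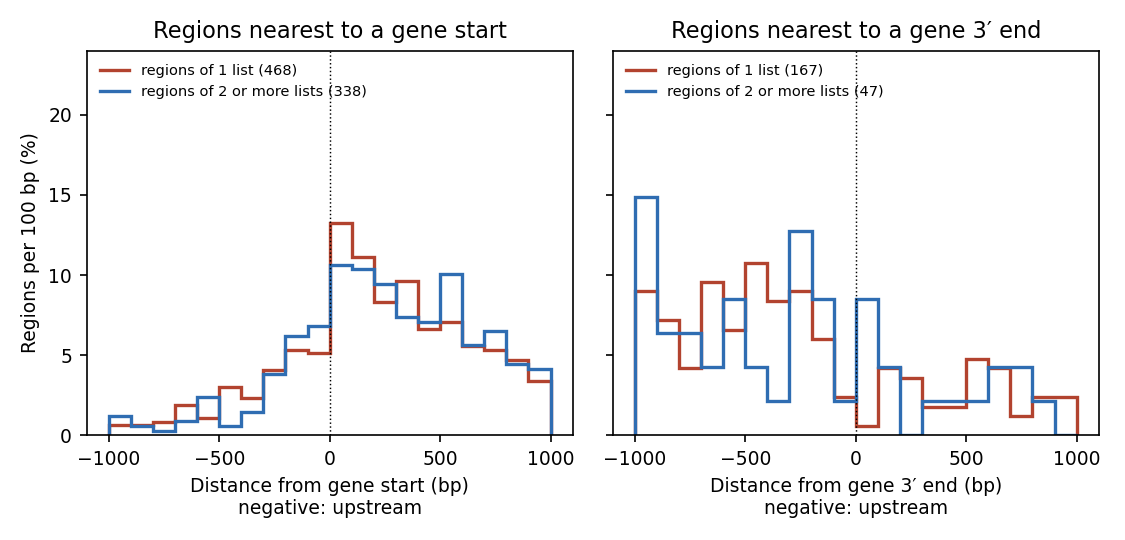
Percent of regions per 100 bp of distance to the nearest gene start (left, 468 one-list and 338 shared regions) or 3′ end (right, 167 one-list and 47 shared regions). Distance is from the region's peak centre closest to that end, and negative distances are upstream. Both kinds of region peak downstream of the start, and the one-list profile is highest, at 13.2%, in the first 100 bp after it.

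The promoters at one-list regions were richer in CpG than promoters in general. For regions nearest to a start, the promoter window with the closest start site was taken, 300 bases with 250 before the site. The 409 windows at one-list regions held a median of 19 CpG (quartiles 11 and 27.5), the 290 at shared regions 20 (14 and 29), and all 21263 windows of protein-coding genes 13 (4 and 24). Median G and C content was 62.3% at one-list regions, 64% at shared regions and 56.3% in all windows. The assay itself selects DNA dense in CpG, and its part in this difference was not tested. A window was called island-like when it had at least 50% G and C and a ratio of observed to expected CpG of at least 0.6. That held for 237 of 409 windows at one-list regions (57.9%, 53 to 62.8%), 182 of 290 at shared regions (62.8%, 56.9 to 68.3%) and 45.1% of all windows.

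Counted per region, 256 of 436 one-list regions (58.7%) and 201 of 315 shared regions (63.8%) had an island-like window, a difference of -5.09 points that did not pass (Fisher's exact test, adjusted p = 0.617). By list, the median was 18 CpG (hairpin 133) and 20 CpG (hairpin 14) at 24 h, against 19 CpG (hairpin 133) and 15 CpG (hairpin 14) at 0 h. The windows went from 1 CpG, as in Cd38, an NAD-consuming enzyme of the cell surface, to 62. Among named genes, Kcnmb4 had 48, Fgf18 47 and Wnt3a, Tcf7 and Prkd3 45 each, while Ccr8 had 2 and Myf5, a muscle determination factor, 3.

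**Figure D4:**
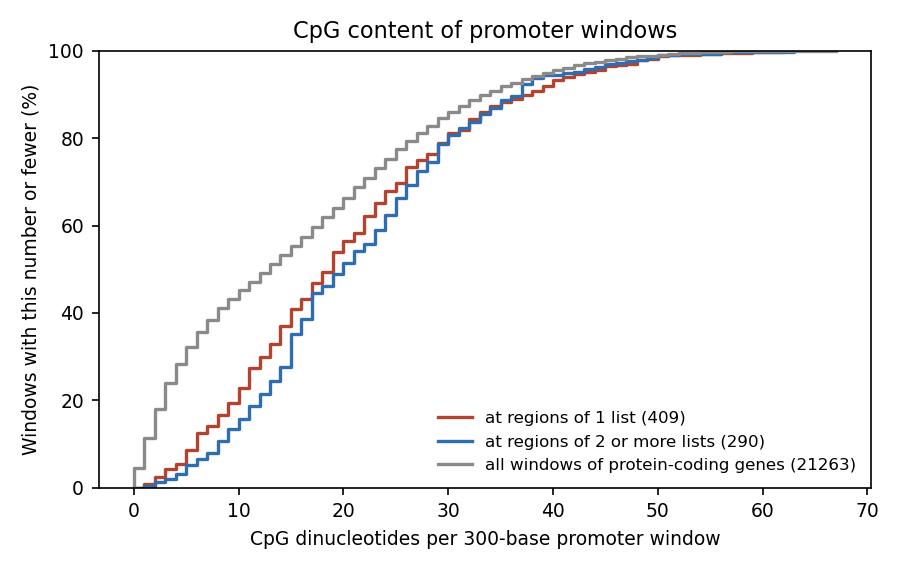
Cumulative percent of 300-base promoter windows by their number of CpG dinucleotides, for 409 windows at one-list regions, 290 at regions of 2 or more lists and all 21263 windows of protein-coding genes. Medians are 19, 20 and 13 CpG, so both kinds of region sit to the right of all windows.

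Motifs of transcription factors were searched as letters on both strands of the same windows. AGATAA, the core letters bound by GATA factors, stood in 21 of 409 windows at one-list regions (5.13%, 3.21 to 7.74%), 9 of 290 at shared regions (3.10%, 1.43 to 5.81%) and 9.65% of all windows. GGGCGG, the GC box, stood in 65.3%, 67.2% and 46.2%. CCNCNCCC, the CACCC element of Klf factors, stood in 77.0%, 78.6% and 56.6%, and it can overlap a GC box. These are matches of letters and not sites, and their shares move with base composition, which also differs between these sets of windows.

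Few genes held one-list regions in more than 1 list. The rule left out every region that overlapped between lists, which by itself lowers such sharing. Of the 801 genes, which make up 3.66% of protein-coding genes, 764 had them in 1 list, 36 in 2 and 1 in 3. At 24 h 1.12% (hairpin 133) and 1.06% (hairpin 14) of protein-coding genes had one, against 0.9% (hairpin 133) and 0.745% (hairpin 14) at 0 h. The lists of both hairpins at 24 h had 11 such genes in common (4.47% of those with hairpin 133 and 4.72% of those with hairpin 14), and those at 0 h had 3 (1.52% and 1.84%). The 4.47% stands beside the 1.06% of all protein-coding genes in the hairpin 14 list, and the 4.72% beside 1.12% for hairpin 133. At 0 h the 1.52% stands beside 0.745%, and the 1.84% beside 0.9%. These differences were not tested. Between times, hairpin 133 had 7 genes in common and hairpin 14 had 6. In 25 of the 37 genes the regions of different lists were at most 1 kb apart (median 475 bp), so that neighbouring stretches of 1 gene end were listed in different libraries.

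The gene in 3 lists was Fst, which encodes follistatin, a secreted inhibitor of activins. Its regions were chr13:114458701-114458851 with hairpin 133 at 24 h, chr13:114459068-114459218 with hairpin 14 at 24 h and chr13:114459555-114459705 with hairpin 133 at 0 h, side by side and 216 and 336 bp apart. A region of 2 or more lists lay at an end of Fst as well. Over all genes with a one-list region, 61 (7.62%) also had a shared gene-end region, against 2.29% of all protein-coding genes.

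Genes with 3 regions in 2 lists were Npnt, Pcdh18 and Pcgf5. Npnt encodes nephronectin, a matrix protein that binds integrins; both regions at its start came from hairpin 133 at 24 h (chr3:132949420-132949570 and chr3:132949623-132949773), and the one 510 bp beyond its 3′ end from hairpin 133 at 0 h. Pcdh18 had the same arrangement, with regions at its start at 24 h (chr3:49757085-49757235 and chr3:49757304-49757454) and 1 inside its 3′ end at 0 h (chr3:49743897-49744047), all with hairpin 133. Pcgf5, a Polycomb ring finger gene, had its regions within 1 stretch downstream of the start: chr19:36348597-36348747 with hairpin 14 at 24 h, then chr19:36348804-36348954 and chr19:36349111-36349261 with hairpin 133 at 0 h.

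Among the genes listed with both hairpins at 24 h were growth factors and matrix genes. Fgf15, the gut hormone that restrains bile acid synthesis, had regions 132 bp apart, with hairpin 133 at chr7:144897106-144897256 and with hairpin 14 at chr7:144896823-144896973. Wnt3a, a ligand of canonical Wnt signalling, had 1 region downstream of its start with hairpin 133 (chr11:59290370-59290520) and 1 upstream with hairpin 14 (chr11:59291008-59291158). The collagen genes Col16a1 and Col26a1 had their regions 108 and 223 bp apart. Lpp, a LIM protein of cell contacts, had regions 230 bp (hairpin 133) and 693 bp (hairpin 14) downstream of the start. Kcnmb4, an accessory subunit of calcium-activated potassium channels, had 1 at the 3′ end with hairpin 133 and 1 at the start with hairpin 14, and Snrpd3 had both at the 3′ end.

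Other genes recurred across times or across both hairpin and time. Adora2b, an adenosine receptor, B4galt4 and Hoxa11, a limb and uterus patterning gene, were listed with hairpin 14 at 24 h and at 0 h. Igdcc3 was listed with hairpin 133 at both times, 173 bp apart. Fgf2 was listed with hairpin 133 at 24 h and, 61 bp away and upstream of the start, with hairpin 14 at 0 h; Dmrt1, a testis determination factor, had the same pair of lists. Edn2 (endothelin 2), Efna4 (an ephrin) and Foxb2 (a forkhead factor) were listed with hairpin 14 at 24 h and with hairpin 133 at 0 h. Ccr8, a chemokine receptor, was listed with both hairpins at 0 h and in no 24 h list.

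In single lists, several genes held a run of neighbouring regions. With hairpin 14 at 24 h, Trpc1, a cation channel that opens downstream of phospholipase C, held 3 within its first 1 kb (chr9:95749424-95749574, chr9:95749656-95749806 and chr9:95749881-95750031), and the nearest peak of another list was 54042 bp away. Hoxc11 held 3 in the same list, 2 of them at chr15:102954283-102954433 and chr15:102954487-102954637. Foxn4, a retinal progenitor factor, and Mapk15, a MAP kinase, held 2 each, and Ttbk1, a tau kinase, held 1 at each end. Tsga8, a testis gene on the X chromosome, held 1, with no peak of another list within 2274 kb.

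With hairpin 133 at 24 h, Wnt2b, a Wnt ligand, held 2 regions on either side of its start (chr3:104961608-104961758 and chr3:104961977-104962127). Cemip, a gene of hyaluronan breakdown, Srsf12, a splicing factor, and Tmem26 also held 2 at their starts, and Rasgef1c, a Ras exchange factor gene, held 1 at each end. Mme, the gene of the membrane protease neprilysin, held 1, and the nearest peak of another list was 1828 kb away. With hairpin 133 at 0 h, Adora1, an adenosine receptor, Hoxb1, a hindbrain patterning gene, Hap1 (huntingtin-associated protein), Ndrg2 and Zfp800 held 2 each near their starts. Neto1, an accessory protein of glutamate receptors, held 1 that was 2674 kb from the next peak of another list. With hairpin 14 at 0 h, Aldh1l2, a mitochondrial folate enzyme, held 2, and Cntn4 (a contactin of neurons), Zfp300, Il1rapl2, Cntnap5b and Cd38 held 1 each, between 659 kb (Cd38) and 2468 kb (Cntn4) from a peak of another list.

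At 1 kb, secreted signalling genes were the class with the highest share. Among 72 Wnt, Fgf, Bmp, Gdf, activin, TGF-beta and hedgehog ligand genes, 14 had a one-list gene-end region (19.4%, 11.1 to 30.5%), against 3.66% of all protein-coding genes, and 4 had a shared one (5.56%, against 2.29%). By list there were 6 and 3 at 24 h and 4 and 4 at 0 h (hairpin 133, then 14). These are 8.33% and 4.17% at 24 h, and 5.56% and 5.56% at 0 h. Beside them, all protein-coding genes had 1.12% and 1.06% at 24 h, and 0.9% and 0.745% at 0 h. Besides Fgf2, Fgf15, Wnt3a and Wnt2b the ligand genes were Bmp8a and Fgf18 with hairpin 133 at 24 h and Gdf10 with hairpin 14 at 24 h. At 0 h they were Fgf8, Fgf11, Inhbe and Tgfb3 with hairpin 133, and Fgf21, Inhbc and Wnt1 with hairpin 14. Within 500 bp of a gene end the ligand count was 7 of 72, against 4 of 39 for Hox genes, so that the order of these classes depends on the distance. The 3.66% of all protein-coding genes holds for 1 kb only. At 500 bp all genes with a one-list region also fell, from 246 and 233 to 159 and 150 at 24 h. At 0 h they fell from 197 and 163 to 118 and 98 (hairpin 133, then 14). In the ligand class and in those of channels, matrix and calcium signalling, genes beyond the naming rule were named after their values had been seen.

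Families of developmental transcription factors differed in their shares. Of 39 Hox genes, 6 had a one-list region (15.4%, 5.86 to 30.5%), among them Hoxa10, Hoxa11, Hoxb1, Hoxc5 and Hoxc11, and 5 had a shared one (12.8%, against 2.29% of all protein-coding genes). The 6 genes held 10 distinct regions. Of 157 homeobox and paired genes outside the Hox clusters, 17 had a one-list region (10.8%, 6.44 to 16.8%). More of them, 22, had a shared one (14.0%, against 2.29% of all protein-coding genes). Within 500 bp 8 had a one-list region, and 30 within 2 kb. Vax2, an eye patterning gene, was listed with hairpin 14 at both times, and Dlx5, Dlx6 and Alx4, genes of skeletal and limb development, with hairpin 14 at 24 h. Gsc (goosecoid) was listed with hairpin 133 at 0 h. By list the class had 4 and 8 members at 24 h (2.55% and 5.10%) and 3 and 3 at 0 h (1.91% and 1.91%). All protein-coding genes had 1.12% and 1.06% at 24 h, and 0.9% and 0.745% at 0 h (hairpin 133, then 14).

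Of 63 basic helix-loop-helix factors, 7 had a one-list region (11.1%, 4.59 to 21.6%), such as Atoh1, Ascl2 and Hes5 at 24 h and Neurod1 and Myf5 at 0 h, and 5 had a shared one (7.94%, against 2.29% of all protein-coding genes). Of 79 Sox, T-box and forkhead genes, 5 had a one-list region (6.33%, 2.09 to 14.2%), namely Foxb2, Foxn4, Sox17, Tbx19 and Tbx3, and 3 had a shared one. Both that interval and the one of the Prdm family hold the 3.66% of all genes. Of 15 Prdm family genes, Mecom, a stem cell regulator, had one (6.67%, 0.169 to 31.9%), with hairpin 14 at 24 h and 461 bp downstream of its start, and 2 had a shared one (13.3%).

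Channel and matrix genes also exceeded the share of all genes. Of 136 potassium, sodium and calcium channel subunits, 19 had a one-list region (14.0%, 8.63 to 21.0%) and 7 a shared one (5.15%, against 2.29% of all protein-coding genes). The one-list counts were 4 and 7 at 24 h (2.94% and 5.15%) and 5 and 4 at 0 h (3.68% and 2.94%). All protein-coding genes had 1.12% and 1.06% at 24 h, and 0.9% and 0.745% at 0 h (hairpin 133, then 14). The 19 included the calcium channel genes Cacna1a, Cacnb3, Cacnb4 and Cacng7, and the potassium channel genes Kcnmb4 and Kcnh2. Of 91 collagen, matrix metalloprotease and Adamts genes, 12 had one (13.2%, 7.0 to 21.9%) and 10 had a shared one (11.0%, against 2.29% of all protein-coding genes). One-list counts were 5 and 7 at 24 h (5.49% and 7.69%) and 2 and 0 at 0 h (2.20% and 0%), beside the same per-list shares of all genes. At 24 h the matrix genes were Col16a1 and Col26a1 with both hairpins, Col11a1 and Mmp25 among those of hairpin 133, and Col7a1, Col23a1, Adamts15 and Adamts17 among those of hairpin 14. At 0 h Adamts13, the protease that cuts von Willebrand factor, was listed with hairpin 133. No test compared the times here.

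In the pathway of the targeted gene, 9 of 79 genes of phospholipases C, protein kinases C and calcium handling had a one-list region (11.4%, 5.34 to 20.5%) and 3 had a shared one. Within 500 bp of a gene end 5 of the 79 had a one-list region, a distance to which the 3.66% does not apply. By list, at 1 kb, one-list regions stood at 3 and 4 of these genes at 24 h and at 2 and 1 at 0 h. Plch1, a phospholipase C of the eta type, was listed 621 bp upstream of its start with hairpin 133 at 24 h, and Nfatc1, a factor activated by calcineurin, in the same list. Rcan1, a calcineurin inhibitor, Prkd2 (protein kinase D2) and Trpc1 were listed with hairpin 14 at 24 h, Prkch (protein kinase C eta) and Itpka, an inositol trisphosphate kinase, with hairpin 133 at 0 h, and Prkd3 with hairpin 14 at 0 h.

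Epo and Kit signalling genes had 4 of 50 members with a one-list region (8%, 2.22 to 19.23%), and 1 within 500 bp of a gene end. At 1 kb the interval of each class in this paragraph holds the 3.66% of all protein-coding genes. Socs3, a feedback inhibitor of cytokine receptors, was listed 823 bp upstream of its start and Syk 745 bp downstream of its start, both with hairpin 14 at 24 h, and Pik3ca and Grb2 at their 3′ ends at 0 h. Syk also had a shared gene-end region, and a peak of another list lay 75 bp from its one-list region. Erythroid transcription factors had 2 of 31 (6.45%, 0.791 to 21.4%), 1 of them within 500 bp, both with hairpin 14 at 24 h: Gata2, a factor of early progenitors, at chr6:88194450-88194600, 634 bp downstream of its start, and E2f2, a cell cycle factor of late erythroblasts, 286 bp beyond its 3′ end. Among genes of the red cell membrane and blood groups, 1 of 32 had one (3.13%, 0.0791 to 16.2%), Add2 (beta-adducin), with hairpin 133 at 24 h. Globin, haem and iron genes had 0 of 40, which allows a share of up to 7.5% by 3 counts of the total and up to 8.81% by the exact interval.

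Genes of other blood lineages had shares whose intervals held that of all genes. Lymphoid genes had 3 of 34 with a one-list region (8.82%, 1.86 to 23.7%), Cd79b and Tcf7 with hairpin 133 and Ebf1 with hairpin 14, all at 24 h. Stem and progenitor regulators had 3 of 32 (9.38%, 1.98 to 25.0%), which were Hlf, Hoxa10 and Mecom. Megakaryocyte genes had 2 of 22 (9.09%, 1.12 to 29.2%), Gp9 and Thbs1, both at 0 h. Myeloid genes had 1 of 30 (3.33%, 0.0844 to 17.2%), Cd14. Genes of the cell cycle, apoptosis and p53 contributed 3 of 59 (Mdm2, Pmaip1 and E2f2). DNA methylation machinery had 1 of 30, Zbtb4, a reader of methylated DNA, listed 358 bp upstream of its start with hairpin 133 at 24 h.

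The large families had intervals that held the share of all genes or lay below it. Of 394 Zfp zinc finger genes, 18 had a one-list region (4.57%, 2.73 to 7.12%), such as Zfp870 in both lists of hairpin 14, and solute carriers had 19 of 387 (4.91%, 2.98 to 7.56%), such as Slc12a7 and Slc19a1. Olfactory and vomeronasal receptors had 7 of 1459 (0.480%, 0.193 to 0.986%), among them Olfr30 and Olfr543. Protocadherins and cadherins had 6 of 101, Gpr and Adgr receptors 4 of 101, ribosomal proteins 6 of 156, imprinted genes 2 of 66 (Ascl2 and Klf14), keratins 2 of 104, germline genes 1 of 49 (Syce2) and housekeeping genes 1 of 28 (Snrpd3). No class was tested, and a gene can belong to several classes.

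**Figure D5:**
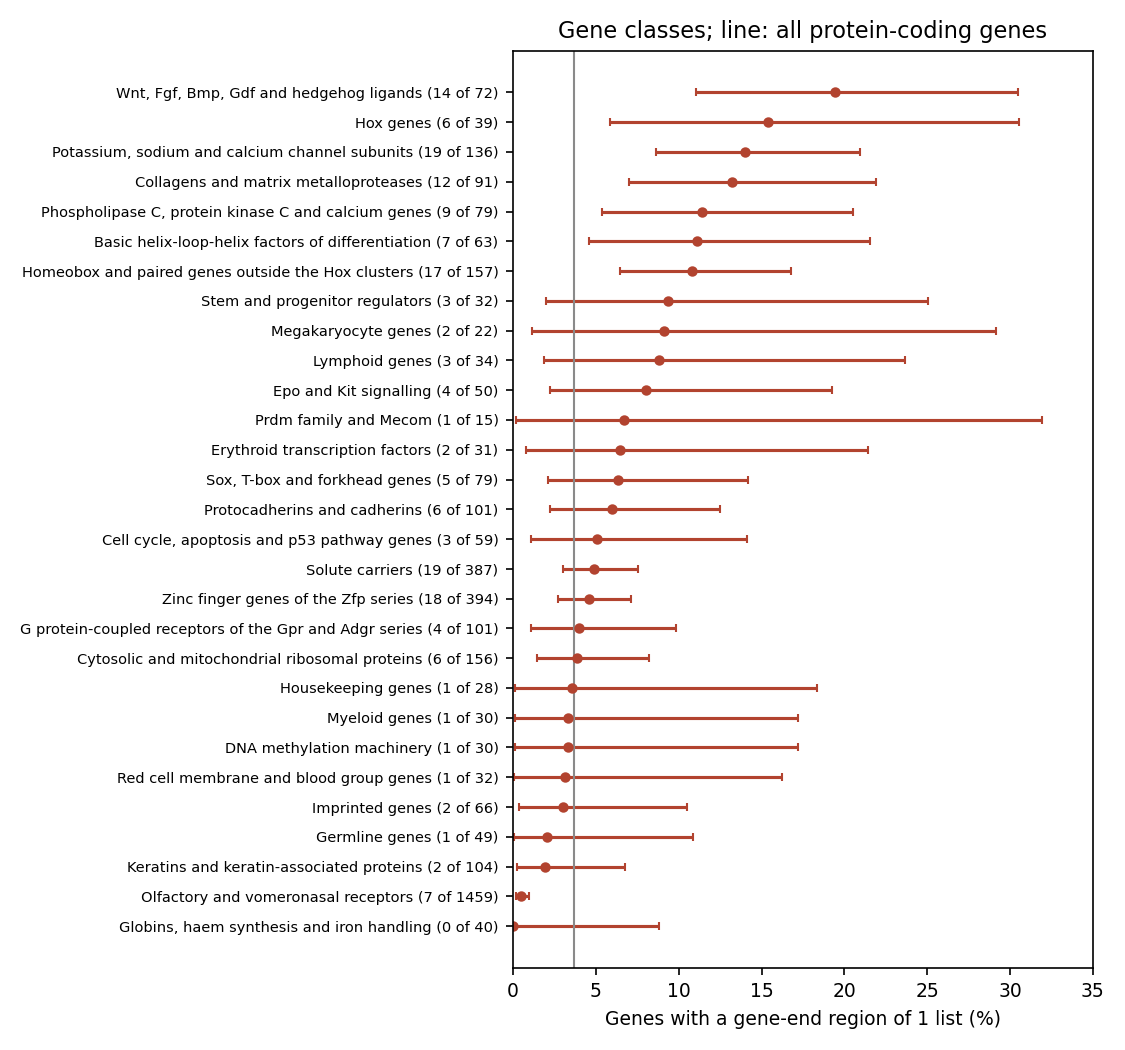
Percent of the genes of each class described here with a gene-end region held by 1 list, with exact binomial 95% intervals and the counts in the labels; the vertical line marks all protein-coding genes (3.66%). Ligand genes are at the top with 14 of 72 and globin, haem and iron genes at the bottom with 0 of 40.

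Held by 1 list does not mean remote from all other lists. The nearest peak of another list was within 1 kb for 116 of 818 one-list gene-end regions (14.2%, 11.9 to 16.8%) and within 10 kb for 222 (27.1%). The median distance was 60.8 kb with hairpin 133 and 31.3 kb with hairpin 14 at 24 h, and 64.3 and 31.5 kb at 0 h. Chromosome 10 held 61 of the 818 (7.46%, 5.75 to 9.48%), against 7.20% of shared gene-end regions (Fisher's exact test, adjusted p = 0.948), 9.11% of one-list regions away from gene ends and 4.57% of protein-coding genes. The X chromosome held 18 (2.20%), against 4.41% of protein-coding genes, and the Y chromosome 0.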

How the data were processed

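Methyl-CpG immunoprecipitation sequencing of 4 libraries was used, 1 per hairpin and time. The deposited lists give region coordinates in base pairs on mm10, with no score, count or strand; per the submitters' processing notes the authors used BWA, Picard, SAMtools and HOMER, with no versions, and threshold and background library are not given in the sources used here. Depth is unknown. Peaks were 151 bp wide except 1 of 120 bp. Genes came from RefSeq on GRCm38.p6, and strand and promoter windows from the RefSeq promoter table, which gave a strand for 17492 of 21887 protein-coding genes (79.9%). The windows of chromosome 18 were not analysed here.

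A region counted for every gene with an end within 1 kb of the centre of any of its peaks. Nearest end, distance and place in the gene body came from the peak centre closest to a gene end. Shares have exact Clopper-Pearson 95% intervals. Fisher's exact tests (SciPy 1.17.1, Python 3.11.15) used a threshold of 0.05 and covered start or 3′ side, gene body, chromosome 10, ends of several genes and island-like windows, the last added after the data were seen. Scripts were tested on simulated lists. Alternatives were other distances, spacing from other lists, lists left out, no predicted genes and the nearest end only.

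Named genes were Plcg1, up to 20 genes in several lists ordered by lists and number of regions, up to 6 per list in that list only ordered by number of regions and remoteness from other lists, and up to 5 per gene class, without predicted genes (24 of the 801). The histone class matched no symbol and was left out, and 1 other class and some named genes are not reported here. The members and lists were chosen with earlier results of these data known.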

Additional observations from a re-analysis of the deposited data

How the results depend on the processing

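No paired analysis was possible because each group is 1 library with no replicate to pair; the times are set side by side within each hairpin, without a test. Of 396 values recomputed under alternatives, 331 stayed within their limits (counts within 1.5 times, shares within their interval, tests on the same side of 0.05). Lists are given as hairpin 133 and 14 at 24 h, then 133 and 14 at 0 h. With 500 bp to a gene end there were 158, 151, 115 and 95 regions (8.16%, 9.12%, 4.78% and 4.77% of one-list regions), 159, 150, 118 and 98 genes, 32, 37, 21 and 19 genes of any class, and 11 genes in 2 or more lists. With 2 kb the shares were 17.2%, 20.4%, 12.8% and 12.4%, with 307 (hairpin 133) and 246 (hairpin 14) regions and 66 and 54 class genes at 0 h, 355 genes for hairpin 14 at 24 h against 336 and 273 for 133 and 14 at 0 h, and 66 genes in 2 or more lists. With no peak of another list within 1 kb, 10 genes stayed in 2 or more lists, a fall built into that limit. With each list left out in turn, shares were 12.99 to 14.7%, 14.3 to 16.1%, 8.42 to 9.55% and 8.33 to 9.75%, and at 0 h there were 211 to 307 and 172 to 273 regions and 220 to 317 and 181 to 282 genes. Of 120 position values, 119 kept their side of the threshold. Only 1 of the 25 main tests had passed, so most of these values record a test that stayed above 0.05, some with a changed sign. Within the list of hairpin 14 at 24 h the start share differed by -8.22 points (Fisher's exact test, adjusted p = 0.138) and the cause was not tested. With lists left out in turn the start share differed by -14.2 to -10.7 points. The position comparisons within lists and with lists left out were added after seeing the data, and p was adjusted within each setting on its own. Of 150 class counts, 124 stayed within 1.5 times. Those that did not were, at 500 bp, ligands (7, against 14 at 1 kb), homeobox genes outside Hox (8, against 17), basic helix-loop-helix factors (4, against 7), phospholipase C and calcium genes (5, against 9), solute carriers (12, against 19), cadherins (3, against 6) and 8 classes with at most 4 genes at 1 kb, among them Epo and Kit signalling (1, against 4) and erythroid factors (1, against 2). At 2 kb they were homeobox genes (30), solute carriers (30), Zfp genes (28, against 18), Sox, T-box and forkhead genes (13, against 5) and 6 classes with at most 4 genes at 1 kb. With no peak of another list within 1 kb they were cadherins (3) and housekeeping genes (0, against 1).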

Other observations

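The list of hairpin 14 at 0 h had few one-list gene-end regions on chromosomes 2 and 3, values picked out after they had been seen. On chromosome 2 there were 19 (hairpin 133) and 20 (hairpin 14) at 24 h, and 19 (hairpin 133) and 2 (hairpin 14) at 0 h. One-list regions of any position on chromosome 2 numbered 139 (hairpin 133) and 115 (hairpin 14) at 24 h, and 178 (hairpin 133) and 136 (hairpin 14) at 0 h. On chromosome 3 the gene-end counts were 19 (hairpin 133) and 7 (hairpin 14) at 24 h, and 12 (hairpin 133) and 2 (hairpin 14) at 0 h. One-list regions of any position there numbered 100 and 70 at 24 h, and 125 and 79 at 0 h (hairpin 133, then 14). Chromosome 14 had 6 (hairpin 133) and 1 (hairpin 14) at gene ends at 24 h, and 5 (hairpin 133) and 6 (hairpin 14) at 0 h. Those of any position on it numbered 69 and 64 at 24 h, and 109 and 84 at 0 h (hairpin 133, then 14).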
